A study of Mus musculus and Homo sapiens with 47 samples.

Results

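Among single cells from Eed-deleted mouse intestine collected at day 16, a minority carried transcripts of Cdkn2a, and those cells are described here. The members were chosen by their Cdkn2a UMI counts. A cell was called Cdkn2a-positive when its barcode held at least 2 unique molecular identifiers (UMIs, each standing for 1 captured transcript) of Cdkn2a. Barcodes with fewer than 2500 UMIs, fewer than 500 genes or over 20% mitochondrial UMIs were left out first. Of 2792 kept cells, 186 were positive, which is 6.66% (exact 95% interval 5.76% to 7.65%), 185 had 1 Cdkn2a UMI and 2421 had none. They were compared with 558 cells of the same library that had 0 Cdkn2a UMIs, 3 for each positive cell, matched in total UMIs. Because Cdkn2a UMIs chose the members, the level of Cdkn2a is given as a description only.

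The mice were of a B6;129 mixed background and carried Eed F/F, a floxed allele of the Eed gene, with Lgr5EGFP-IRES-CreERT. That knock-in expresses green fluorescent protein and a tamoxifen-inducible Cre recombinase in Lgr5-expressing crypt base stem cells. Tamoxifen was given at 1 to 2 mg daily for 5 days and then on alternate days, and the epithelium of the proximal 1/3 of the intestine was sorted for GFP, so all the groups used here, controls included, carry the same alleles and drug. There is 1 single-cell library each for days 7, 12 and 16 (10x Genomics 3' chemistry, 11289 kept cells in all), and bulk RNA libraries of sorted cells for days 9 (3), 14 (2), 21 (2) and 30 (1 of the 2 that the labels list). The labels call the bulk libraries biological replicates but name no animals, so p-values measure only the spread between these libraries. The labels do not say from which event the days are counted, give no age or number of animals, and call the source villus cells where the titles name stem cells. No single-cell library of wild-type mice was used here, and recombination was not measured in each cell.

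Eed is a core subunit of Polycomb repressive complex 2 (PRC2), which places the H3K27me3 mark that keeps developmental genes silent. Cdkn2a encodes 2 unrelated proteins from alternative first exons. p16INK4a inhibits the kinases CDK4 and CDK6 and so keeps RB active and E2F targets off, and ARF holds back MDM2 and so stabilises p53. The locus is a classic PRC2 target that is silent in healthy proliferating epithelium. Crypt stem cells divide often and give rise to absorptive enterocytes and to goblet, Paneth, enteroendocrine and tuft cells.

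The windows around the transcription starts of genes that the results turn on are shown to let their CpG content be compared, since CpG-dense promoters are those that PRC2 typically occupies. They come from RefSeq (build GRCm38.p6, 250 bases before to 50 after the start, 5′ to 3′ on the gene's strand) and have CG dinucleotides in capitals. The Cdkn2a starts lie on the minus strand of chromosome 4, the ARF start (chr4:89294570-89294869) upstream of the p16INK4a start (chr4:89282143-89282442), and the related inhibitor Cdkn2b (chr4:89310983-89311282, minus strand) lies beside them. The others are the secreted signalling protein Wnt4 (chr4:137277385-137277684, plus strand), the homeobox factor Barx1 (chr13:48662786-48663085, plus strand) and, for contrast, the secretory cell lectin Mptx1 (chr1:174330268-174330567, plus strand).
Cdkn2a, ARF start: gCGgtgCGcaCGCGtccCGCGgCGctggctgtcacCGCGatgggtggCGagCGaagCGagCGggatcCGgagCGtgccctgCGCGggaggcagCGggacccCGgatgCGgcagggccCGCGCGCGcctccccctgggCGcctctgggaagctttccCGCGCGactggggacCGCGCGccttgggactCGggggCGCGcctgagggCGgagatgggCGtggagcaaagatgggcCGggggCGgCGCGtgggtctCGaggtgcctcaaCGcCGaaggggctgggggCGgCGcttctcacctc
Cdkn2a, p16INK4a start: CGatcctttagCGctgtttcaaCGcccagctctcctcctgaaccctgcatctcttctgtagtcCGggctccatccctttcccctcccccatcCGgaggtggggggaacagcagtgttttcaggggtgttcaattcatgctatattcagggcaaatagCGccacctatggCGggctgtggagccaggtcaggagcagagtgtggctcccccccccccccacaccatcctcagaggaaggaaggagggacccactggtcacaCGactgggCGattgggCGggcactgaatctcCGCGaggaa
Cdkn2b: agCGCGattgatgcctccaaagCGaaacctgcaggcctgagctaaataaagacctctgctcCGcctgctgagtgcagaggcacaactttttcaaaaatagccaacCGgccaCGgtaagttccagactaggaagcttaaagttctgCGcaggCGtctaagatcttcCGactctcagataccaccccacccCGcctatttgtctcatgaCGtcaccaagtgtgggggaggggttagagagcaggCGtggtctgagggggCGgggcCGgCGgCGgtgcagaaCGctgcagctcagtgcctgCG
Wnt4: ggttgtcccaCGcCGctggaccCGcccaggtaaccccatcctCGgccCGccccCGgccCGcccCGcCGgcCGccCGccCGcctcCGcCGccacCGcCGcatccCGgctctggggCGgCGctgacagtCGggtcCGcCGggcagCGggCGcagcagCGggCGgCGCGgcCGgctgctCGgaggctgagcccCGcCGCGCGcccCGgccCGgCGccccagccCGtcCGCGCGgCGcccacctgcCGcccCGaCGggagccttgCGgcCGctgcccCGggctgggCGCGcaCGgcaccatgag
Barx1: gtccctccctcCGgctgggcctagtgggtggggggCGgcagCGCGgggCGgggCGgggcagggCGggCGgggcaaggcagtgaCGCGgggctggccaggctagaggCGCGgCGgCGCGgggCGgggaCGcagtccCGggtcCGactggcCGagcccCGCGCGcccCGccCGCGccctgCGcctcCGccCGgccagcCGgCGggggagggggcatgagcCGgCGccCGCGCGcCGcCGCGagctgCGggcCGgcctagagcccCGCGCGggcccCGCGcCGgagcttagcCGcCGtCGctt
Mptx1: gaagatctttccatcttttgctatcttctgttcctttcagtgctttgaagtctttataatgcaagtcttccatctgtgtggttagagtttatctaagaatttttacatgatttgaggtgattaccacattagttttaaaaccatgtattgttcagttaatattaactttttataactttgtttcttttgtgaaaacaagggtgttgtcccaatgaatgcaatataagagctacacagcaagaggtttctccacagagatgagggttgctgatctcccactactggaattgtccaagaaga
The ARF window held 45 CG dinucleotides, a count reached by 1.93% of all promoter windows in the RefSeq table, and the p16INK4a window held 12, reached by 39.6%. Cdkn2b had 18 (29.7%), Wnt4 51 (0.715%) and Barx1 50 (0.855%), whereas Mptx1 had none. These windows were picked and do not stand for all the genes described below. Among other genes that stood higher, Zic1 had 31, Hoxa5 29, Pax6 18, Hoxa7 9 and Hoxd4 4, taking the start with most. Among genes that stood lower, E2f7 had 49, E2f1 48, Olfm4 5 and Gkn3 5. Hoxb13 had no window in the RefSeq table. Whether CG counts go with the differences was not tested. The single-cell reads start near the 3' end, which both Cdkn2a transcripts share, so the UMIs do not say which start was used.

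Cdkn2a transcripts were detected in 0 of 3833 kept cells at day 7, which allows a share of cells with a UMI of up to 0.0783% (3 counts of the total). At day 12, 29 of 4664 cells (0.622%) had at least 1 UMI and 9 (0.193%) had at least 2, with 5 as the highest count. At day 16, 371 of 2792 cells (13.3%) had at least 1. The positive cells held 759 Cdkn2a UMIs in all, with a lowest count of 2, a median of 3 and a highest of 18. Just inside the threshold were 62 cells with 2 UMIs and just outside it 185 cells with 1. With no replicate library on any of these days, day and library cannot be told apart, and all intervals on cells and UMIs cover counting error only.

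**Figure D1:**
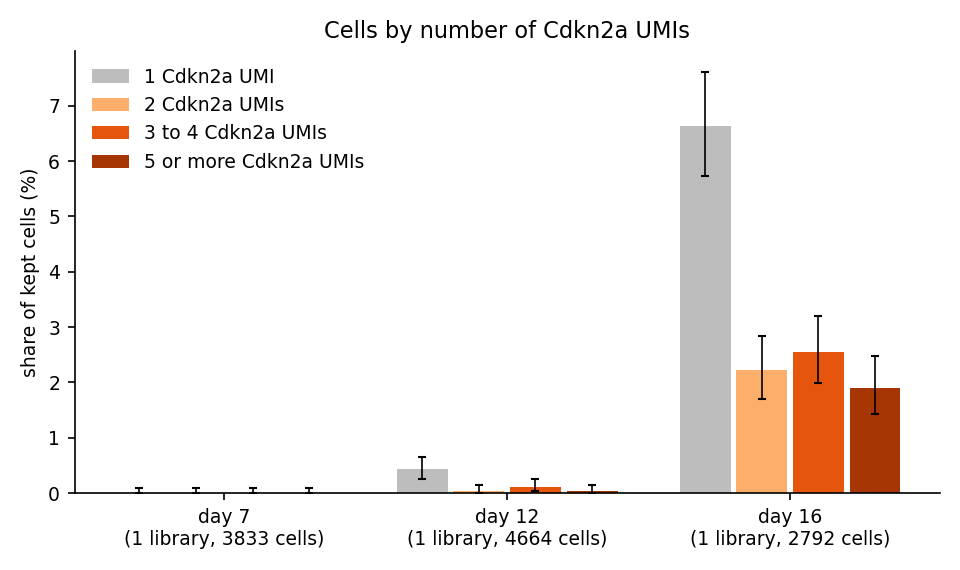
Share of kept cells (vertical axis, %) with 1, 2, 3 to 4 or 5 or more Cdkn2a UMIs in the libraries of days 7, 12 and 16, with exact 95% binomial intervals for counting error. No cell at day 7 carried a Cdkn2a UMI, and the share with at least 2 was 0.193% at day 12 and 6.66% at day 16.

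Free RNA, which leaks from broken cells into every droplet, could place Cdkn2a UMIs in cells that do not express it. Barcodes with 1 to 100 UMIs held Cdkn2a at 24.1 CPM at day 16, against 281 CPM in positive cells, whose level the rule itself sets and whose median total was 13468 UMIs. CPM here are the UMIs of a gene in a group of cells scaled to a group total of 1000000, and further on the same for reads of a bulk library. Transcripts of tuft cells, a type to which no positive cell was assigned, gauge how much free RNA these droplets took up. Tuft markers stood at 13.3 CPM in positive cells and 146 CPM in free RNA, a ratio of 9.14% with an upper limit of 12.7%. At that limit free RNA would give Cdkn2a at 3.05 CPM, or 0.041 UMI in a cell of median depth. Among 36 cells with immune markers (median 3421 UMIs), 2 had a Cdkn2a UMI and 1 had 2, and among 38 cells with tuft markers (median 7654 UMIs) 1 had a UMI and none had 2. Immune-class droplets also held enterocyte transcripts at 66.5% of their free RNA level and were shallower than the positive cells. Over all kept cells of day 16, chosen on no Cdkn2a value, Cdkn2a was at 26.7 CPM (95% interval 25 to 28.5), which overlaps with the free RNA level (19.4 to 29.6), so the mean levels do not separate cells from free RNA. The part of free RNA in single Cdkn2a UMIs was not tested.

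Matching left the groups alike in depth. Positive cells ranged from 4403 to 37844 UMIs with a median of 3233 genes and 11.0% mitochondrial UMIs, and matched cells from 4362 to 37745 UMIs with a median of 3409 genes and 10.7%. The 3 libraries shared 1 to 4 cell barcodes per pair and no positive barcode recurred. No doublet caller was run. Cells in the top 5% of total UMIs made up 7.53% of positive and 7.17% of matched cells, and cells with markers of 2 or more of 6 differentiated or immune types made up 22.6% and 7.89%.

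Among 9288 genes with at least 50 UMIs over both groups, 367 (3.95%) differed 2-fold or more upward in positive cells and 292 (3.14%) downward, with a median log2 difference of -0.07 over all of them. The genes that stood higher included a second CDK inhibitor at the same locus, targets of p53, Hox and other developmental factors, and goblet and Paneth cell genes. The genes that stood lower included those of DNA replication and of the stem cell state. Cells of 1 library are not replicates, so these are differences in size with no test.

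CDK inhibitors bind cyclin-dependent kinases and stop the cell cycle. Apart from Cdkn2a, 2 of the 6 measured were at least 2-fold higher in positive cells, against 3.95% of all genes, and none was 2-fold lower. Cdkn2b, which encodes p15INK4b, another inhibitor of CDK4 and CDK6, had 103 CPM in positive and 11.6 in matched cells, 8.84-fold higher (95% counting interval 6.97 to 11.3). It was detected in 56.5% of positive and 9.86% of matched cells. Cdkn1a, which encodes p21 and is a main p53 target, had 322 and 76.9 CPM, 4.18-fold higher (3.77 to 4.65), with detection in 84.4% and 42.7% of cells. The other 4 lay within 2-fold. Cdkn1b (p27) was at 42.6 and 57.1 CPM, Cdkn1c (p57) at 14.5 and 16.8, Cdkn2c (p18) at 11.5 and 16.1, and Cdkn2d (p19INK4d) at 13 and 12.2. The difference was thus not shared across the INK4 family, of which Cdkn2c and Cdkn2d are members at other loci. Mtap, which lies on the other side of Cdkn2a in the RefSeq annotation and was looked up after the data were seen, had 33.4 and 26.3 CPM.

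p53 is a transcription factor that answers DNA damage and oncogenic stress. Of 18 measured genes in the list of p53 and its targets, 9 were at least 2-fold higher in positive cells, against 3.95% of all genes, and none 2-fold lower. The list's median log2 difference was 0.93 against -0.07 over all genes. Phlda3, Plk2 and Zmat3 among them reached 50 UMIs only with the UMIs of positive cells, so nothing is read from that count or median. Summed over all 23 genes of the list, levels were 2059 and 1075 CPM. Phlda3, a p53-induced repressor of AKT signalling, was at 74.1 CPM in positive and 5.19 in matched cells, 14.3-fold higher (10.2 to 20.4). It was detected in 54.3% and 5.91% of cells. Plk2, a stress-induced kinase, was 7.39-fold higher (37.4 and 5.07 CPM). Zmat3, an RNA-binding p53 target, was 4.53-fold higher (23.0 and 5.07), and Trp53inp1, a p53-induced regulator of cell death, was 4.38-fold higher (27.1 and 6.18). By contrast Mdm2, the p53 target and inhibitor that ARF binds, was 1.75-fold higher (44.1 and 25.2), and Trp53 itself was lower, at 104 and 151 CPM. Both were picked out after their values were seen. Immediate-early and heat-shock genes, which also answer stress and cell handling, summed to 5525 and 3902 CPM, with none of 13 past 2-fold and a median log2 difference of 0.49. Among them Atf3, a stress-induced factor, was at 428 and 225 CPM.

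S phase genes encode the machinery that copies DNA. All 24 in the list passed the minimum of 50 UMIs, 17 of them were at least 2-fold lower in positive cells against 3.14% of all genes, and none was 2-fold higher. The list's median log2 difference was -1.18, and its summed level was 793 and 1714 CPM. The replicative helicase subunits Mcm3 (39.7 and 118 CPM) and Mcm6 (44.5 and 125) were 2.97-fold and 2.82-fold lower. Dtl, a ubiquitin ligase adaptor that acts in S phase, was at 8.15 and 23.9 CPM, and Hells, a chromatin remodeller, at 33.4 and 87.5. In the group of D cyclins, CDK4/6, RB and E2F, 2 of 14 genes were 2-fold lower and none higher. These were E2f1 (6.67 and 19.8 CPM), the activator of S phase genes, and its antagonist E2f7 (2.97 and 6.55). Cdk4 was at 181 and 313 CPM, whereas Ccnd2, which encodes cyclin D2, was 1.51-fold higher, at 777 and 514. Ccnd1 (119 and 133), Ccnd3 (25.2 and 26.0) and Cdk6 (8.52 and 10.0) differed by less than 1.2-fold.

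Genes of G2 and mitosis differed less in their summed level. None of the 24 was past 2-fold in either direction, the median log2 difference was -0.36, and the summed level was 2590.5 and 3443 CPM. Counted per cell, the median was 2.87 and 13.8 UMIs of these genes per 10000, and 2.40 and 12.9 for S phase genes, so the typical cell differed about as much in both. Mki67, the proliferation marker, was found in 36% of positive and 63.4% of matched cells, but its level was 254 and 320 CPM. Top2a, which untangles replicated DNA, was at 163 and 240 CPM, and Ccnb1, which encodes cyclin B1, at 41.1 and 66.4. Cells were also assigned to marker classes after thinning each to 2500 UMIs, with at least 5 different markers needed for a cycle class. The S phase class held 14% of positive and 31.7% of matched cells, a difference of -17.7 points (95% interval -23.9 to -10.8). The class of G2 and mitosis held 25.3% and 36.9%, a difference of -11.6 points (-19 to -3.68). Without thinning the shares were 37.6% and 81.7% for S phase and 36% and 62.9% for G2 and mitosis. Positive cells therefore included cells with mitotic transcripts, 47 of 186 by the thinned count.

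**Figure D2:**
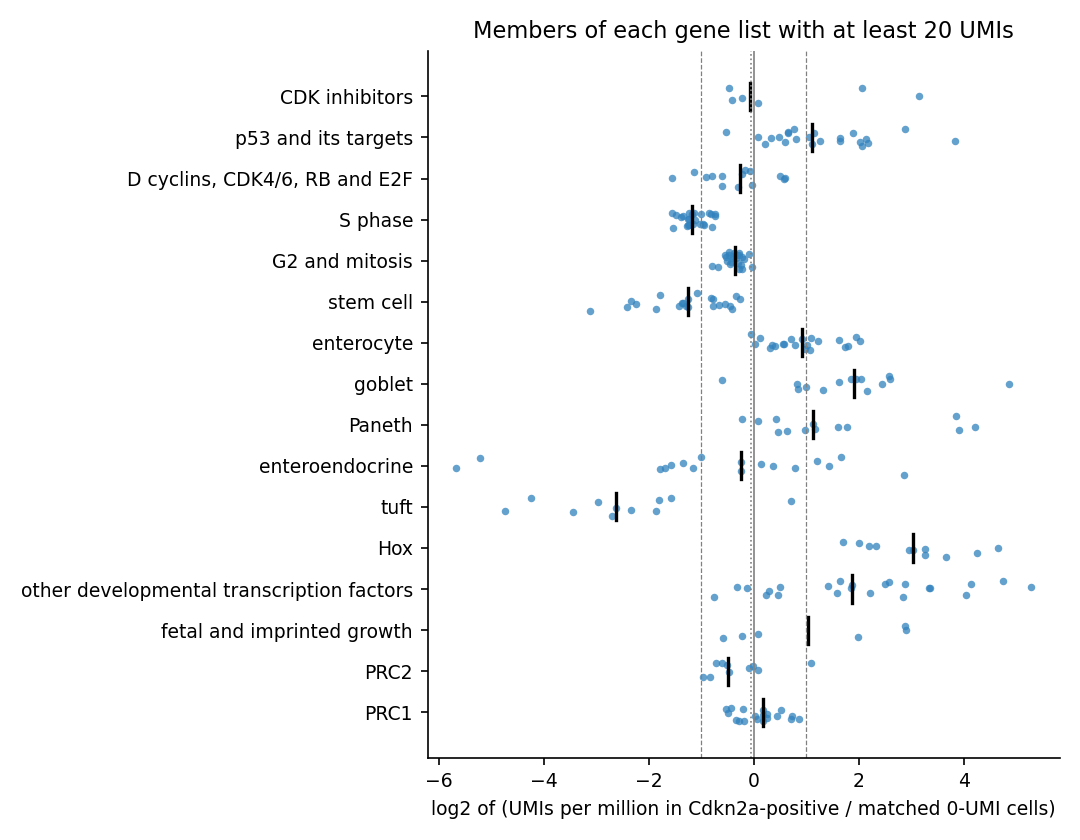
Log2 ratio of CPM in Cdkn2a-positive over matched cells (horizontal axis) for every member of 16 gene lists with at least 20 UMIs over both groups, 1 point per gene, with a black bar at each list's median. Dashed lines mark 2-fold, the dotted line the median of all genes (-0.06), and a gene with 0 UMIs in 1 group is drawn at the floor of 3 UMIs. The Hox members drawn lie to the right of 2-fold, though most reached 20 UMIs only with positive cells, and S phase and stem cell members lie mostly to the left.

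Stem cell markers were lower. Of 21 measured, 12 were at least 2-fold lower in positive cells, against 3.14% of all genes, and none 2-fold higher. The list had a median log2 difference of -1.25 and summed levels of 1026 and 2231 CPM. Ascl2, the Wnt-driven transcription factor that sets the crypt stem cell state, was at 5.56 and 48.6 CPM, 8.74-fold lower, and was detected in 5.91% and 38% of cells. Olfm4, an abundant secreted marker of crypt base stem cells, was at 88.6 and 422 CPM, and Gkn3 at 13.7 and 73.8. Ephb3, a receptor that positions cells in the crypt, was at 2.59 and 13.1 CPM. Lgr5, the Wnt co-receptor whose locus drove the sorting marker and which was added to the named genes after the data were seen, was at 17.8 and 42.8 CPM. The stem cell class (at least 3 different markers after thinning) held 24.7% of positive and 69.5% of matched cells, a difference of -44.8 points (-51.9 to -36.9).

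Many goblet, Paneth and enterocyte genes stood higher, and tuft genes summed lower. Over all genes 3.95% were at least 2-fold higher. Of 14 goblet genes 10 were, with summed levels of 17089 and 3387 CPM. They included Zg16, a mucus lectin, at 3775 and 130.3 CPM (1 cell held 25.6% of its UMIs in positive cells), the mucin Muc2 at 989 and 163, and Fcgbp, which binds mucin, at 1982 and 331. The 29.0-fold difference of Zg16 was 7.58-fold among goblet-class and Paneth-class cells alone and 3.00-fold outside them. Of 13 Paneth genes 7 were 2-fold higher. Mptx1 was at 5274 and 351 CPM, 15.0-fold higher, and 3.09-fold with matching on classes, but 1 cell held 94.8% of the UMIs of the antimicrobial peptide Defa21, and members of the Defa and Mptx families are so alike that reads may be split between them. Of 19 enterocyte genes 8 were 2-fold higher, among them Fabp1, which carries fatty acids (975 and 318 CPM), the disaccharidase Sis (74.5 and 19.4) and the peptidase Enpep (57.5 and 14.2).

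By marker class, 23.1% of positive and 10.2% of matched cells were goblet (a difference of 12.9 points, 6.41 to 20.05), and 19.4% and 6.99% were Paneth (12.4 points, 6.43 to 19.1). The enterocyte class took 62.4% and 47.8%. Its markers are also abundant in free RNA, at 3149 CPM, as are those of goblet cells at 4896 and of Paneth cells at 6723 CPM. Counted per cell, the median was 1.84 UMIs of goblet genes per 10000 in positive and 1.38 in matched cells. For Paneth genes it was 1.39 and 0.898, so the larger differences in summed levels do not describe the typical cell. A cell may be in several classes or in none, and the classes are cut from a marker count, with 202 of the day 16 cells at the goblet cut or 1 marker below it. Turned around, 13.1% of the 328 goblet-class cells at day 16 were Cdkn2a-positive (9.65% to 17.3%), 14.5% of the 248 Paneth-class cells and 9.17% of the 1265 enterocyte-class cells, against 2.5% of the 1840 stem cell-class cells (1.84% to 3.32%). Of the 38 tuft-class cells none was positive, which allows a share of up to 7.89%, and 2 of 98 enteroendocrine-class cells were. Tuft markers were lower in positive cells, at 13.3 and 80.5 CPM, and 2 UMIs of stromal and endothelial markers were found in all positive cells together. Of 8 measured tuft genes 7 were 2-fold lower, against 3.14% of all genes. Positive cells held 36 tuft UMIs in all, so these genes reached 50 UMIs only with matched cells and nothing is read from that count. The tuft class held 0 of 186 positive and 6 of 558 matched cells, a difference of -1.08 points (-2.33 to 1.00). The median per cell was 0 in both groups. Of 10 enteroendocrine genes 3 were 2-fold higher and 4 lower, with summed levels of 455 and 588 CPM. The hormone Gip was at 4.08 and 208 CPM, though the enteroendocrine class held 1.08% of positive and 1.43% of matched cells.

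**Figure D3:**
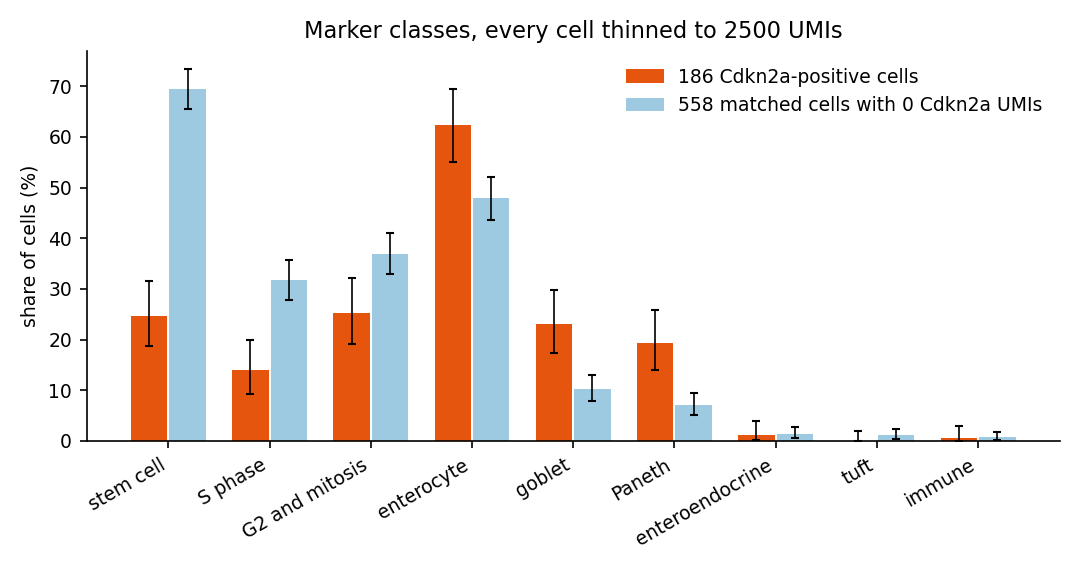
Share of cells (vertical axis, %) in each marker class among 186 Cdkn2a-positive cells and 558 matched cells with 0 Cdkn2a UMIs, with every cell thinned to 2500 UMIs and exact 95% binomial intervals. Stem cell and cycle classes were smaller among positive cells, and goblet, Paneth and enterocyte classes larger.

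Hox genes specify position along the body axis and are PRC2 targets in most adult tissues. Summed over all 39 genes of the list, Hox transcripts were at 189 and 24.2 CPM, 7.82-fold higher (6.62 to 9.26), and at 43.2 CPM in free RNA. Hoxb13, normally expressed at the posterior end of the body axis, led with 56.0 and 2.22 CPM, 25.2-fold higher (15.4 to 43.6), and was detected in 44.6% and 2.33% of cells. Hoxa10 was at 14.5 and 1.85 CPM, Hoxb9 at 11.1 and 1.36, Hoxb7 at 10.7 and 1.11, and Hoxa5 at 10.7 and 2.35. These genes are named from the 11 with at least 20 UMIs over both groups. All 11 were past 2-fold, where 5.51% of the 10735 genes with that many UMIs were higher and 4.61% lower, but 10 of them reached that minimum only with the UMIs of positive cells, so nothing is read from that count. The other one, Hoxa7, was at 10.0 and 3.09 CPM, and the remaining 28 had fewer UMIs. Hoxd4 had 19 UMIs in positive and 3 in matched cells, or 19-fold (counting interval 5.59 to 100). The 11 came from the A, B, C and D clusters, with Hoxc6 the only C member and Hoxd4 the only D member. As most of them passed the minimum through positive cells, this describes the list only. At least 1 Hox gene was detected in 82.8% of positive and 19.2% of matched cells, and after thinning to 2500 UMIs in 34.4% and 5.91%.

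Of 9 other developmental transcription factors with at least 50 UMIs, 3 were at least 2-fold higher, against 3.95% of all genes, and none 2-fold lower. The median log2 difference of the 9 was 0.29. The 3 higher genes reached 50 UMIs only with the UMIs of positive cells, so nothing is read from that count. With at least 20 UMIs 16 of 23 were higher and none lower, but 14 of the 23 reached that minimum only with the UMIs of positive cells. Of the 9 that reached it in matched cells alone, 3 were higher and none lower. Pax6, known from eye, pancreas and enteroendocrine development, was at 21.5 and 2.10 CPM and was found in 25.8% and 1.25% of cells. Barx1, which patterns the stomach from its mesenchyme, was at 33.7 and 3.34 CPM. Pax3, a neural crest and muscle factor, was at 15.2 and 0.865, Zic2, a neural factor, at 12.2 and 0.742, and Meis2, a partner of Hox proteins, at 24.8 and 3.46. Foxl2, the ovarian factor, had 26 and 2 UMIs (39-fold, interval 9.76 to 339), and Zic1 had 18 and 2 (27-fold, 6.46 to 240). Of the 7 factors within 2-fold, Pitx1 was at 29.3 and 36.7 CPM, Barx2 at 28.2 and 23.1, and Nr2f2 at 14.8 and 16.2. A positive cell held transcripts of a median of 6 Hox and other developmental factors (0 to 21), and a matched cell of 2 (0 to 18).

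Outside these lists, Wnt4 was at 40.0 and 1.73 CPM, 23.1-fold higher (13.2 to 43.7), with detection in 33.3% and 1.97% of cells. The fetal RNA-binding proteins Igf2bp1 (17.4 and 2.35 CPM) and Igf2bp3 (48.6 and 12.2) and the imprinted growth factor Igf2 (11.1 and 1.48) were also past 2-fold, but Hmga2, another fetal growth gene, was at 18.9 and 28.3. The iron exporter Slc40a1 was at 22.2 and 1.98 CPM, the actin-severing protein Scin at 196 and 19, and the gasdermin Gsdmc4, whose family members are nearly alike in sequence, at 59.7 and 5.19. Clca3, a goblet cell gene, was at 693 and 66.6 CPM. When cells were matched on cycle and lineage classes too, Clca3 went from 10.4-fold to 2.44-fold, Scin from 10.3-fold to 2.87-fold and Gsdmc4 from 11.5-fold to 5.85-fold. Among secreted genes associated with senescence, only 2 reached 50 UMIs, and of these the EGF receptor ligand Areg was 3.66-fold higher, at 231 and 63.2 CPM, and Vegfa was at 17 and 11.5. Eed itself, whose UMIs do not report on a deletion outside the counted 3' end, was at 15.2 and 29.7 CPM, and in bulk at 39.6 to 46.3 CPM at day 9 and 34.2 and 38.7 CPM at day 21. The labels do not say which exons are deleted, so these values check nothing about recombination. Ezh2, the PRC2 methyltransferase that is more abundant in dividing cells, was at 71.9 and 129. None of 16 measured genes of PRC1, the partner complex that reads the mark, was past 2-fold. Class II MHC genes were lower, 3 of 5 past 2-fold against 3.14% of all genes, with Cd74 at 34.1 and 84.7 CPM.

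Cdkn2b, Phlda3 and Wnt4 were detected in more cells the more Cdkn2a UMIs a cell held. Phlda3, Wnt4 and Hoxb13 were named for large folds between positive and matched cells, so their contrast between those groups restates that choice. The cells with 1 UMI were in neither group. Cdkn2b was found in 9.86% of matched cells, 25.4% of cells with 1 Cdkn2a UMI, 43.5% of cells with 2 and 62.9% of cells with 3 or more. Phlda3 followed the same order with 5.91%, 23.8%, 43.5% and 59.7%, and Wnt4 with 1.97%, 12.4%, 21% and 39.5%. Hoxb13 was found in 2.33%, 25.9%, 50.0% and 41.9%, so that its last step lay within the counting error. Mcm5, a helicase subunit, was found in 60.8%, 44.3%, 27.4% and 23.4%, and Olfm4 in 78.9%, 54.1%, 37.1% and 21%. The cells with 1 UMI, which the rule left out, thus stood between the groups, and at least 1 Hox gene was found in 67.0% of them.

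**Figure D4:**
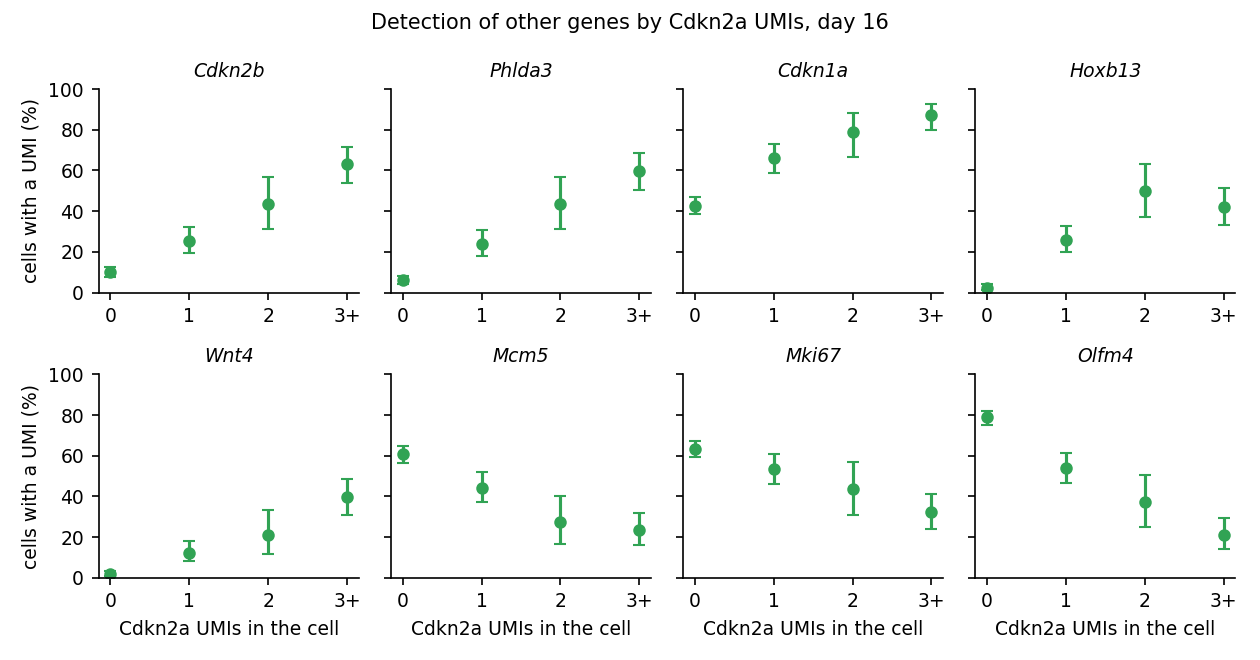
Share of day 16 cells in which each of 8 genes was detected (vertical axis, %), by Cdkn2a UMIs in the cell: 558 matched cells with 0, 185 with 1, 62 with 2 and 124 with 3 or more, with exact 95% binomial intervals. Cdkn2b, Phlda3, Cdkn1a and Wnt4 were detected more often at higher Cdkn2a counts, and Mcm5, Mki67 and Olfm4 less often.

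No 1 of these genes marked all positive cells. Of Cdkn2b, Hoxb13, Wnt4 and Phlda3, 16 positive cells held all 4, 38 held 3, 60 held 2, 53 held 1 and 19 held none. Of the 558 matched cells, 462 held none, 82 held 1, 12 held 2, 2 held 3 and none held all 4. Hoxb13, Wnt4 and Phlda3 were named for their large folds between these same cells, so the contrast with matched cells restates that choice. Cdkn2b and Phlda3 were found together in 63 of 186 positive cells, Cdkn2b and Hoxb13 in 51, and Wnt4 and Hoxb13 in 32. Wnt4 and Mki67 were found together in 11 positive cells, and Phlda3 and Mki67 in 44.

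Because goblet and Paneth markers moved with the result, positive cells were split by those classes, a split made after the data were seen, and each side was compared with depth-matched 0 cells of the same class. The 46 positive cells in the goblet or Paneth class and the 140 outside both each had a median of 3 Cdkn2a UMIs. Hoxb13 was found in 73.9% of the 46 against 7.97% of their matched cells, and in 35.0% of the 140 against 2.38%. Barx1 was found in 50.0% of the 46 against 18.1%, and in 6.43% of the 140 against 0.476%. Cdkn2b was found in 41.3% against 14.5% within the classes, and in 61.4% against 9.29% outside them. Phlda3 was found in 32.6% against 6.52%, and in 61.4% against 6.43%, and Wnt4 in 19.6% against 2.90%, and in 37.9% against 1.90%. Each of these 5 genes was thus found more often in positive cells on both sides, and the shares themselves differed between the sides. Hoxb13, Phlda3 and Wnt4 had been named for large folds over all the positive cells, so their direction here is no separate result.

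S phase and stem cell genes were lower in both subsets. Within the goblet or Paneth class the S phase list was at 569 and 1258 CPM and that of G2 and mitosis at 1060.5 and 2963. Outside both classes S phase was at 866 and 1759.6, while G2 and mitosis was at 3091 and 3516, and Mki67 was at 302 and 318 CPM. Stem cell markers were at 811 and 1473 CPM within and 1096 and 2374 outside. The Paneth list, which was 3.36-fold higher over all positive cells, was at 52617 and 49861 CPM within the classes and at 177 and 195 outside. When matching was done on the cycle and lineage classes as well as on depth, Cdkn2b was 4.20-fold, Cdkn1a 3.44-fold and Hoxb13 8.22-fold higher, and the ratio of G2 and mitosis was 0.998. Under that matching 175 genes exceeded 2-fold upward and 152 downward, over 183 positive and 548 matched cells. The number of genes that reached the minimum there is not given, so these counts are not shares.

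At day 12 only 9 cells had 2 or more Cdkn2a UMIs, too few for sums. Cdkn1a was detected in 7 of the 9, Phlda3 in 6 and Cdkn2b in 4, where 24.4%, 11.7% and 2.59% of the 4635 cells with 0 Cdkn2a UMIs had them. Hoxb13, Wnt4 and Pax6 were found in none of the 9. Over all day 12 cells Hoxb13 was found in 1 of those 4635, and at day 7 in none of 3833. These cells belong to a library that did not choose the members, but the numbers are small and depth was not matched.

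Bulk RNA from sorted cells of the same genotype, in libraries that the single-cell rule did not use, give the levels over the whole sort. At day 9 the 3 libraries had Cdkn2a levels of 0.387, 0.284 and 0.290 CPM, against 0.093 and 0 at day 14, 11.9 and 11.6 at day 21 and 8.08 at day 30. The later values do not overlap with the earlier ones. In an edgeR quasi-likelihood fit over 14692 genes, day 21 exceeded day 9 by 5.17 on the log2 scale (adjusted p = 3.57e-05) and day 30 by 4.63 (adjusted p = 0.000236). Both comparisons share the day 9 libraries, and day 30 has 1 library, assumed to vary like the others. In bulk samples more cells with a transcript and more transcript per cell cannot be told apart.

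Over all genes, 7.46% rose and 12.8% fell at day 21 against day 9 at an adjusted p under 0.05, and 3.67% rose and 6.62% fell at day 30. Of the 367 genes at least 2-fold higher in positive single cells, 365 were tested, and 91 of them (24.9%) rose and 15 (4.11%) fell at day 21, with a median log2 change of 0.39 against -0.01 over all genes. At day 30, 30 (8.22%) rose and 44 (12.1%) fell, with a median of -0.17. Of 290 tested genes at least 2-fold lower in positive cells, 18 (6.21%) rose and 36 (12.4%) fell at day 21, and 18 rose and 7 fell at day 30. At day 30, with 1 library, the median was 0.16 for the lower genes, so both medians went against the single-cell directions. The higher genes thus rose above the background share at day 21, and the lower genes then fell at about the background share. For day 30, both the rises and the falls of the higher genes exceeded the shares over all genes. Leaving out replicate 1 of day 21 turned the first of these counts into 59 rises and 29 falls. When libraries were scaled by their totals alone, the median of all genes shifted up by 0.22 at day 21 and 0.21 at day 30, and the split of calls turned from 1096 higher and 1878 lower to 2827 and 1010 at day 21, and from 539 and 972 to 1729 and 648 at day 30.

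Developmental genes rose in bulk as well, where 7.46% of all genes rose at day 21. Genes near 0 at day 9, Hoxb13 among them, passed the low-count filter through later libraries and had little room to fall. Nothing is therefore read from the counts and medians of these lists beside that share. Of 30 tested Hox genes 20 rose at day 21 and 16 at day 30 and none fell, with median log2 changes of 3.38 and 4.24. Of 78 other developmental factors 37 rose at day 21 and 31 at day 30, and none fell. Hoxb13 was at 0, 0.284 and 0.0483 CPM at day 9, 3.30 and 2.43 at day 14, 6.28 and 8.51 at day 21 and 10.7 at day 30, and so stood above its day 9 values at day 14, where Cdkn2a did not. It rose by 5.94 (log2, adjusted p = 0.000476) at day 21. Pax6 was at 2.58, 1.83 and 1.5 CPM at day 9, 1.95 and 1.02 at day 14, 7.46 and 12.6 at day 21 and 10.5 at day 30 (log2 2.34, adjusted p = 0.00303 at day 21). Wnt4 was at 0.483 to 0.732 CPM at day 9 and at 2.52 and 2.69 at day 21 (log2 2.09, adjusted p = 0.00635), and Igf2bp1 went from 0.0861 to 0.447 CPM at day 9 to 8.77 and 8.64 at day 21 (log2 5.12, adjusted p = 0.000762).

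The inhibitors and p53 targets were less uniform in bulk. Of the 6 CDK inhibitors other than Cdkn2a, 3 rose at day 21 and none fell. Besides Cdkn2b these were Cdkn1c (log2 0.97, adjusted p = 0.0191) and Cdkn2c (log2 0.85, adjusted p = 0.0219), which lay within 2-fold in positive cells. Cdkn2b was at 10.8, 7.68 and 8.94 CPM at day 9, 10.6 and 12 at day 14, 26.9 and 28.4 at day 21 and 11.8 at day 30, a rise of 1.6 (log2, adjusted p = 0.000366) at day 21 and a log2 difference of 0.37 (adjusted p = 0.324) at day 30. Cdkn1a was at 52.2, 71.7 and 48.5 CPM at day 9 and 72.7 and 71.7 at day 21, where the lower day 21 value equals the highest day 9 value to 3 digits (log2 0.33, adjusted p = 0.196). Without replicate 2 of day 9 its difference was 0.54 and passed the test, as it did at 0.55 with scaling by library totals. Phlda3 was at 2.37 to 3.25 CPM at day 9, 6.27 and 8.69 at day 14 and 6.07 and 6.37 at day 21 (log2 1.17, adjusted p = 0.0136), and its day 21 difference of 1.13 without replicate 2 of day 21 no longer passed. Trp53inp1, which was higher in positive cells, fell in bulk by 2.21 on the log2 scale at day 21 (adjusted p = 0.00398). Of 23 tested p53 genes 2 (8.70%) rose and 5 (21.7%) fell at day 21, against 7.46% and 12.8% of all genes. S phase genes, lower in positive cells, had 1 of 24 higher (4.17%) and 3 lower (12.5%), so their falls were near the share over all genes. Genes of G2 and mitosis, whose sum was lower in positive cells, had 6 of 24 higher (25%) and 3 lower (12.5%) at day 21. Their median log2 change was 0.27. Stem cell genes had 10 of 22 lower (45.5%) and none higher at day 21, among them Ascl2 (log2 -0.65, adjusted p = 0.00364) and Olfm4 (log2 -0.63, adjusted p = 0.00319). The stem cell list summed to 13023 to 14715 CPM at day 9 and to 9689 and 10053 at day 21. At day 30, with 1 library, it was at 14607 CPM, within the day 9 range.

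Other cell types also moved in the bulk sorts. Tuft markers summed to 56.4 to 129 CPM at day 9, 185 and 474 at day 21 and 412 at day 30, with 11 of 18 higher at day 21. The goblet list summed to 6227 to 8117 CPM at day 9 and to 7030 and 13544 at day 21, with 3 of 14 higher, and enterocyte markers to 4810 to 5714 and to 4688 and 13554. Markers of enteroendocrine cells, in which Pax6 is known to act, summed to 562 to 693 CPM at day 9 and to 826 and 1304 at day 21, with 6 of 22 higher. Immune markers summed to 28.6 to 55.7 CPM and to 62.8 and 77.0, with 4 of 20 higher, and stromal and endothelial markers to 2.67 to 5.00 and to 6.75 and 14.4, with 2 of 6 higher. Paneth markers summed lower, at 15494 to 27987 CPM at day 9 and 2956 and 13976 at day 21, but 1 of 13 (7.69%) was called higher and 1 lower. Over all genes 7.46% were called higher and 12.8% lower at day 21. The part of these cell types in the bulk changes was not tested. In the positive single cells tuft markers stood at 13.3 CPM and Rgs13, a defining tuft gene, had 0 UMIs.

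**Figure D5:**
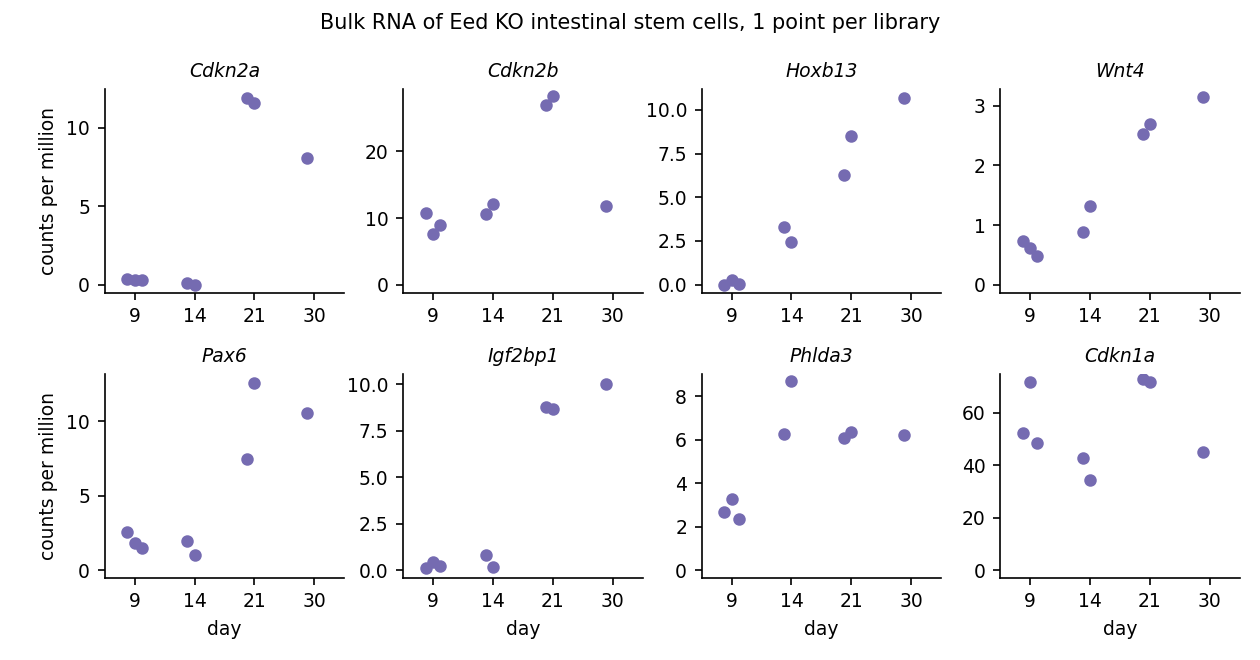
CPM (vertical axis, a linear scale for each gene) in each bulk library of days 9, 14, 21 and 30, 1 point per library, for 8 genes that were higher in Cdkn2a-positive cells. Cdkn2a, Hoxb13, Wnt4, Pax6 and Igf2bp1 stood higher in all libraries of days 21 and 30 than in those of day 9, as did Cdkn2b and Phlda3, while Cdkn1a at day 30 was below all day 9 values.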

How the data were processed

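Single-cell values are the authors' deposited UMI counts for each gene and barcode, made with Cell Ranger 3.0.2 per the submitters' processing notes, which name the build mm9. Bulk values are read counts per gene as deposited, and STAR 2.5.3a is named in the submitters' processing notes. The counting tool is not given in the sources used here. 1 bulk column, whose header names a day found in no label, was not used. No column was matched to the second day 30 library of the labels, and whether the unused one is that library is not known, so day 30 values rest on 1 library.

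The members and gene lists were chosen with earlier results of these data known. Each positive cell, from the highest total down, took the 3 nearest unused cells with 0 Cdkn2a UMIs in log10 total UMIs. UMIs were summed over cells and divided by the group's total, with Cdkn2a left out of the totals. Folds carry exact conditional counting intervals, and shares have exact Clopper-Pearson 95% intervals. Differences of shares combine those intervals. A list ratio compares sums over all its members, while counts and medians use members with at least 50 UMIs (20 where stated). Where 1 group had 0 UMIs the floor was 3.

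Named genes were all CDK inhibitors, the D cyclins, Cdk4, Cdk6 and Eed, the 10 largest folds in each direction among genes with 50 UMIs and detection in 10% of the higher group, up to 4 leading and 2 most abundant members per list, and all Hox and other developmental factors with 20 UMIs. Exceptions are stated.

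The 8 bulk libraries held 21328684 to 27900351 counts. They were fitted together with edgeR 4.0.16 (TMM, filterByExpr, quasi-likelihood F test, Benjamini-Hochberg) in R 4.3.3, with DESeq2 1.42.0 as an alternative. The programs were tested on simulated data. Python 3.11.15 was used with scipy 1.17.1.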

Additional observations from a re-analysis of the deposited data

How the results depend on the processing

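The number of Cdkn2a-positive cells follows the threshold, with 13.3% of cells at 1 or more UMIs and 4.44% at 3 or more. Counts of genes past 2-fold in this section are given without the number of genes that reached the minimum. That number can differ with the cells pooled, so the counts are not shares and are not compared between settings. With 1 or more UMIs the stem cell class differed by -31.4 points, 111 genes were 2-fold lower, and list ratios were 1.66 (p53), 0.669 (S phase), 0.814 (G2 and mitosis), 0.58 (stem cell) and 5.95 (Hox). With 3 or more UMIs they were 1.99 (p53), 0.424 (S phase) and 0.391 (stem cell). With 1 matched cell per positive cell 180 genes were lower, and ratios were 0.484 (S phase), 0.727 (G2 and mitosis) and 5.81 (Hox). Without matching 579 genes were lower, and ratios were 1.8 (p53), 0.511 (S phase), 0.874 (G2 and mitosis), 0.424 (stem cell) and 5.56 (Hox). Thinning to 2500 UMIs left 140 genes higher, with ratios of 2.0 (p53) and 0.419 (stem cell). With at most 10% mitochondrial UMIs 208 genes were higher, and ratios were 1.8 (p53), 0.521 (S phase), 0.785 (G2 and mitosis) and 5.55 (Hox). Without the top 5% of total UMIs they were 2.01 (p53), 0.395 (S phase) and 0.439 (stem cell). With matching on cycle and lineage classes too, 175 genes were higher and 152 lower, ratios were 1.72 (p53), 0.614 (S phase), 0.998 (G2 and mitosis), 0.564 (stem cell) and 6.48 (Hox), and the Paneth list turned to 0.727. Subtracting free RNA at the share seen in immune-class cells gave 3.34 (p53) and 0.519 (G2 and mitosis), and gave no value for lists whose level then was not above 0. With a minimum of 20 UMIs 591 genes were higher and 495 lower, and with 100 UMIs 178 were lower.

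Further alternatives were chosen after seeing the data. Free RNA subtracted at the tuft limit gave ratios of 2.04 (p53), 0.396 (S phase), 0.727 (G2 and mitosis), 0.384 (stem cell) and 9.8 (Hox). Without goblet-class and Paneth-class cells they were 0.492 (S phase), 0.879 (G2 and mitosis) and 6.43 (Hox), and the Paneth list turned to 0.905. Outside the cycle classes 526 genes were lower, with ratios of 0.263 (S phase), 0.304 (G2 and mitosis), 0.336 (stem cell) and 6.12 (Hox). Of 22 genes past 2-fold followed through 12 alternatives, all 22 kept their direction and 20 stayed past 2-fold in all, the exceptions being Cyp2e1 and Gins3. The cause of each shift was not tested.

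In bulk, 2974 genes were called at day 21 and 1511 at day 30. Library-size scaling called 2377 at day 30, and among genes higher in positive cells 158 rose at day 21 and 56 at day 30, while among those lower 19 fell at day 21. Same-numbered libraries correlated at -0.021 to 0.048, so the numbers do not show pairing. The replicate block called 1689 genes at day 21 and 764 at day 30, of which 14 were among the higher genes and 4 among the lower at day 30, and it ended the calls of Wnt4 and Phlda3 on both days and of Pax6 at day 30. DESeq2 called 11 of the lower genes at day 30. Leaving out 1 library gave 1864 to 2466 calls at day 21 and 875 to 1398 at day 30. Among the higher genes 59 to 109 rose at day 21 and 21 to 34 at day 30, and among the lower genes 19 to 34 fell at day 21 and 5 to 7 at day 30. The lowest values came without replicate 1 of day 9 (1864 and 875), replicate 1 of day 21 (59) and replicate 2 of day 21 (19), and without the last of these Phlda3 and Gkn3 lost their calls at day 21. Day 30 rests on 1 of the 2 libraries in the labels, and each single-cell day on 1 library.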
